A study of Mus musculus with 16 samples.

Results

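Odorant receptors were compared between the sorted fractions of mouse olfactory mucosa to ask whether odor exposure changed how each receptor's mRNA was distributed between them. The members were the 1080 genes of the arrays with an Olfr symbol followed by a number, out of 19505 genes measured by 19572 features. The other 18425 genes (18492 features) were read from the same fit. For each of 8 pools of mice, the log2 signal of the fraction titled GFP+ was subtracted from that of the fraction titled GFP−. The mean of the 4 odor pool differences minus the mean of the 4 vehicle pool differences is called the interaction. A positive interaction means that a receptor's signal lay further toward the titled GFP− fraction in odor pools than in vehicle pools.

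All mice were C57BL/6 animals of both sexes, aged 7 to 12 weeks, that carried the S100a5-tauGFP reporter, in which the activity-dependent gene S100a5 drives a fluorescent protein. Of 24 mice, 12 received a mixture of undecanal and bourgeonal, aldehydes with a straight aliphatic chain and with an aromatic ring, respectively. The other 12 received filtered air as vehicle. Each mouse spent 40 h alone in a chamber with clean air flowing at 3.1 L/min, and from 26 h on the odor or vehicle came as pulses of 10 s every 20 min. Cells of the dissociated mucosa were sorted by fluorescence, and the 4 groups (odor or vehicle, titled GFP− or titled GFP+) each held 4 arrays, every array made from 3 pooled mice. The agent was a mixture, so these pools cannot tell undecanal from bourgeonal. The copy number of the reporter allele was not given in the sources used here.

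Each olfactory sensory neuron chooses a single odorant receptor gene and expresses it from a single allele, so the level of a receptor's mRNA in a cell population largely follows the number of neurons that chose it. When an odorant activates a receptor, the neurons that carry it raise activity-dependent genes such as S100a5. In a mouse whose S100a5 gene drives a fluorescent protein, neurons with an activated receptor are expected to brighten, and their receptor's mRNA to be found more in the fluorescent fraction. In bulk sorted cells, fewer neurons of a type and less receptor mRNA per neuron cannot be told apart.

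Titles and cell type characteristics gave opposite GFP states on all 16 arrays. Titles are used here, and if the characteristics are right, a positive interaction lies toward the fluorescent cells in odor pools. The sign turns for every feature alike if the fractions are exchanged. S100a5 itself was higher in the titled GFP− fraction in all 8 pools. Its differences were 2.43, 0.71, 1.08 and 1.03 log2 units in odor pools and 0.94, 0.85, 1.13 and 1.07 in vehicle pools. Odor pool 1 stood above the others, and the interaction of S100a5 was 0.32 ± 0.33 (SE, adjusted p = 0.952 by limma). Omp, the marker protein of mature sensory neurons, differed between the fractions by 0.02 to 0.21 log2 units in the 8 pools and had an interaction of 0.00 ± 0.15. Background, taken from the array's own background probe sets, lay at 6.87 to 7.41 log2 units. By that measure 115 of the 1080 receptors were below background on all 16 arrays, 920 were above it on at least 4 and 458 on all 16.

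No receptor passed the test of the interaction. At an adjusted p of 0.05 (limma on the 8 pool differences, Benjamini-Hochberg over 19572 features), 0 of 1080 receptors were higher and 0 lower, and 0% of all features were called in either direction. The smallest adjusted p was 0.910. At an unadjusted p under 0.05, 56 receptors (5.19%) had a positive and 12 (1.11%) a negative interaction, against 3.09% and 2.28% of all features. With each array centred on its median over tested features, the median interaction of all features moved from 0.03 to −0.07. The receptor counts were then 37 and 19, against 1.2% and 4.41% of all features. Leaving out odor pool 4 or vehicle pool 1 gave 100 or 93 positive receptors, against 3.92% or 2.82% of all features. Leaving out odor pool 1 gave 39 positive and 25 negative receptors, against 3.16% and 2.67% of all features.

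Odor and vehicle pools of one replicate number varied together, so the odor effect was also fitted within numbers. With this replicate block, 0 receptors passed at an adjusted p of 0.05 by limma (0% of all features, smallest adjusted p = 0.454). At an unadjusted p under 0.05, 158 receptors (14.6%) were positive and 38 (3.52%) negative, against 4.18% and 2.69% of all features. After the same centring the block gave 111 positive and 58 negative receptors, against 2.11% and 5.33% of all features. In all 4 numbers the odor pool exceeded the vehicle pool for 158 receptors (14.6%), against 9.16% of all features, and was below it for 45 (4.17%), against 5.89%. All 4 odor pools lay above all 4 vehicle pools for 15 receptors (1.39%), against 2.11% of all features, and below them for 4 (0.37%), against 1.32%.

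The receptors' interactions spread more widely than those of other genes, and toward positive values. Their median was 0.16 log2 units, with the middle 50% between −0.13 and 0.44 and 63.8% positive. Over all features the median was 0.03, with the middle 50% between −0.15 and 0.21 and 54.9% positive. The median SE was also larger for receptors, 0.39 against 0.24 log2 units, and the median 95% interval of a receptor reached 0.88 to either side. An interaction above 1 was found in 53 receptors (4.91%), against 0.455% of all features, and one below −1 in 2 receptors (0.185%), against 0.107%. Receptors were thus 53 of the 89 features above 1. Without odor pool 1 they were 31 of 120, without odor pool 4 they were 99 of 151 and without vehicle pool 1 they were 93 of 118. With values raised to background they were 19 of 21.

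**Figure D1:**
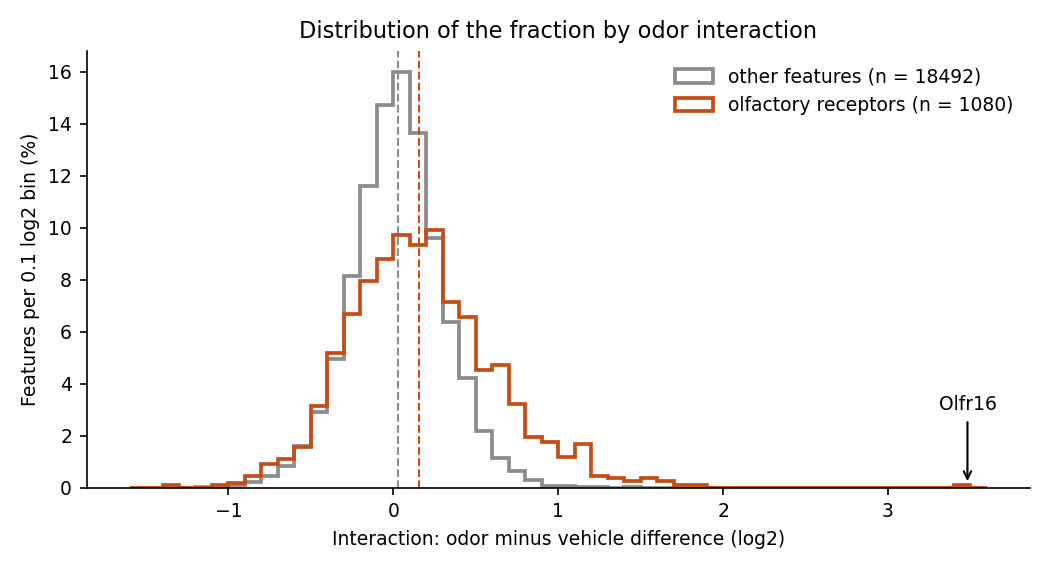
Distribution of the interaction (x axis, log2 units) for 1080 olfactory receptors and 18492 other features, as the percentage of each set per bin of 0.1 (y axis), with dashed lines at the medians. The receptors extend further to the right than the other features, and Olfr16 stands alone at 3.48.

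Olfr16, also called MOR23 and known as a receptor for the floral aldehyde lyral, had the largest interaction of the 1080 receptors. In the titled GFP− fraction its log2 signal was 12.05, 12.91, 12.02 and 10.04 in odor pools and 9.48, 8.72, 10.90 and 9.14 in vehicle pools. In the titled GFP+ fraction it was 9.29, 10.28, 11.13 and 11.49 in odor pools and 11.71, 12.11, 11.22 and 12.31 in vehicle pools. Odor pools 1, 2 and 3 thus had more Olfr16 signal in the titled GFP− fraction, while odor pool 4 and all vehicle pools had more in the titled GFP+ fraction. The pool differences were 2.75, 2.62, 0.89 and −1.45 with odor and −2.23, −3.39, −0.32 and −3.17 with vehicle. The groups overlapped, since odor pool 4 lay below vehicle pool 3, although odor exceeded vehicle in 4 of 4 replicate numbers. The interaction was 3.48 ± 0.95 (SE, 95% interval 1.36 to 5.60), with an unadjusted p of 0.0044 and an adjusted p of 0.910 by limma, or 0.561 with the replicate block. Without 1 pool or 1 replicate number it ranged from 2.64 to 4.37. Olfr16 was above background on all 16 arrays.

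**Figure D2:**
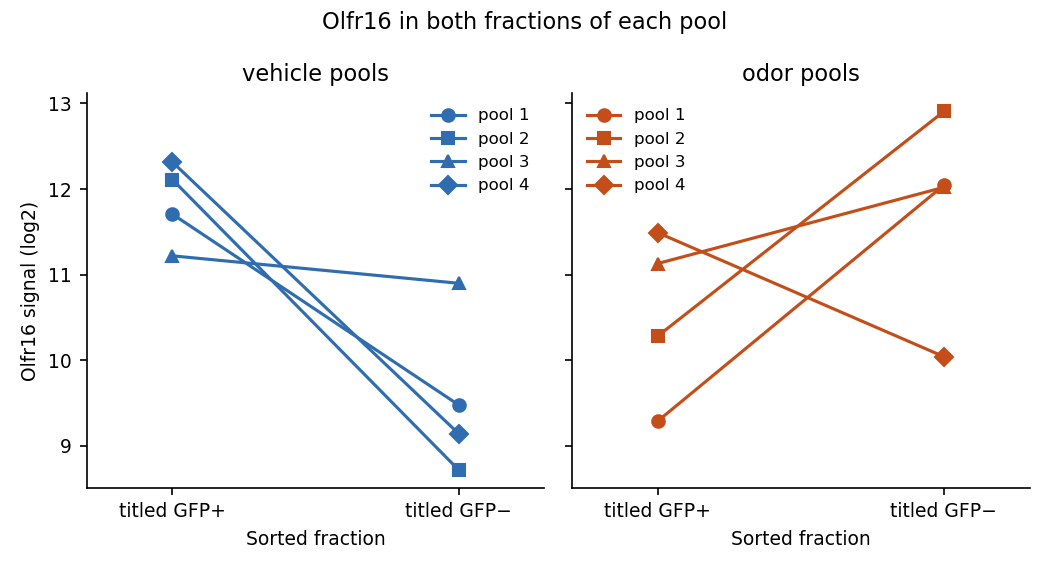
Olfr16 signal (y axis, log2) in the titled GFP+ and titled GFP− fractions (x axis) of the 4 vehicle and 4 odor pools, with a line joining the fractions of each pool. The line falls to the right in all 4 vehicle pools and in odor pool 4 and rises in odor pools 1, 2 and 3.

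Olfr2, also called I7 and known for its response to octanal, was set beside Olfr16 as the second receptor with known aldehyde ligands. Its pool differences were −1.83, −0.12, −0.53 and 0.95 with odor and −0.64, −0.56, −0.98 and 1.17 with vehicle. The groups overlapped throughout, and odor exceeded vehicle in 2 of 4 numbers. The interaction was −0.13 ± 0.60 (SE, 95% interval −1.48 to 1.21, adjusted p = 0.992 by limma), an interval that holds changes of over 1 log2 unit in either direction.

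By p-value, the receptors at the positive end were Olfr774, Olfr577, Olfr657, Olfr1002 and Olfr594, none of which passed. Olfr774, a class II receptor of chromosome 10, had the smallest p. Its titled GFP− signal was 8.22, 8.38, 8.23 and 7.86 in odor pools and 7.73, 7.32, 6.76 and 7.99 in vehicle pools. Its titled GFP+ signal was 6.38, 6.10, 5.65 and 6.18 in odor pools and 6.77, 7.03, 6.40 and 7.40 in vehicle pools. All 4 odor differences, 1.68 to 2.59, lay above the 4 vehicle differences, 0.29 to 0.96. The interaction was 1.55 ± 0.25 (SE, 95% interval 1.00 to 2.09, unadjusted p = 9.4e-05, adjusted p = 0.910 by limma). All 4 odor arrays titled GFP+ were below background, and with values raised to background the interaction was 0.43.

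Olfr594, a class I receptor of chromosome 7, was the only one of these 5 above background on all 16 arrays. In the titled GFP− fraction its signal was 9.66, 11.32, 11.19 and 10.62 with odor and 9.65, 10.25, 9.70 and 10.19 with vehicle. In the titled GFP+ fraction it was 9.11, 11.40, 11.20 and 11.48 with odor and 10.76, 11.64, 10.94 and 11.85 with vehicle. In vehicle pools it was lower in titled GFP−, with differences of −1.66 to −1.11, whereas the odor differences were 0.55, −0.07, −0.00 and −0.87. The groups did not overlap, and the interaction was 1.25 ± 0.28 (SE, 95% interval 0.62 to 1.88, adjusted p = 0.910 by limma). With values raised to background it stayed at 1.25.

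The other 3 receptors at this end were below background on at least 8 arrays each. Olfr657, of class I, had odor differences of −0.07 to 0.70 and vehicle differences of −1.43 to −0.16, with an interaction of 1.38 ± 0.30. It was above background on 1 array of each group, and the interaction was 0.30 with values raised to background. Olfr1002 was below background on all 8 titled GFP− arrays and above it on all 8 titled GFP+ arrays, with differences of −4.57 to −3.62 with odor and −5.68 to −4.94 with vehicle. Its interaction was 1.14 ± 0.25, or 0.65 with values raised to background. Olfr577 was below background on all 16 arrays, so its interaction of 0.87 ± 0.16 has no measured signal behind it.

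At the negative end the smallest p-values belonged to Olfr642, Olfr1036, Olfr557, Olfr12 and Olfr769, and none passed. Olfr1036 and Olfr12 were above background on all 16 arrays. For Olfr1036, a class II receptor of chromosome 2, the titled GFP− signal was 9.79, 11.66, 11.19 and 12.00 with odor and 11.23, 11.61, 11.30 and 13.16 with vehicle. Its titled GFP+ signal was 7.64, 9.92, 9.13 and 10.08 with odor and 8.08, 9.23, 8.44 and 10.60 with vehicle. It was thus higher in titled GFP− in all 8 pools, by 1.74 to 2.15 log2 units with odor and by 2.38 to 3.15 with vehicle, without overlap. The interaction was −0.77 ± 0.21 (SE, 95% interval −1.23 to −0.31, adjusted p = 0.910 by limma).

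Olfr12, of chromosome 1, had differences of 0.00 to 0.62 with odor and 0.49 to 1.42 with vehicle, and the groups overlapped (interaction −0.71 ± 0.24). Olfr557 differed by 0.36 to 1.84 with odor and by 1.68 to 2.73 with vehicle, and was below background on all 8 titled GFP+ arrays (interaction −1.06 ± 0.36, or −0.56 with values raised to background). Olfr769, with the most negative interaction of all receptors at −1.36 ± 0.49, was below background on 7 of 8 titled GFP− arrays. Its value with signals raised to background was −0.18. Olfr642 was below background on all 16 arrays (−0.79 ± 0.21).

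**Figure D3:**
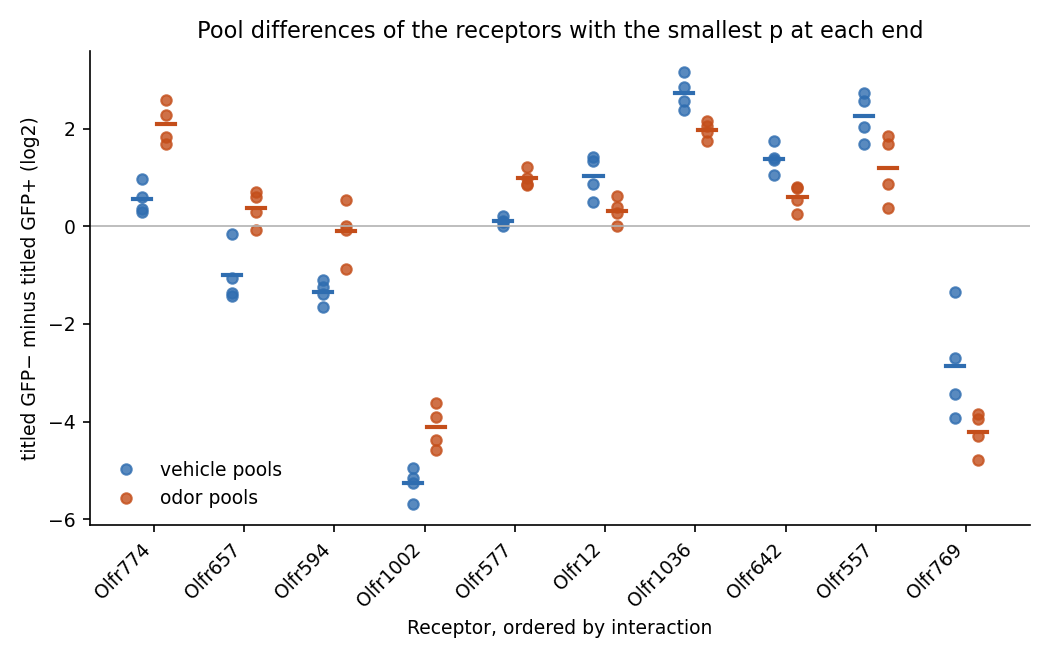
Difference of titled GFP− minus titled GFP+ (y axis, log2 units) in each of 4 vehicle and 4 odor pools for the 5 receptors with the smallest p at either end (x axis, ordered by interaction), with bars at the group means. Odor and vehicle points are separate for Olfr774, Olfr657, Olfr594, Olfr1002, Olfr577, Olfr1036 and Olfr642 and overlap for Olfr12, Olfr557 and Olfr769.

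Pools with a high Olfr774 difference also had high differences of Olfr577, Olfr690 and Olfr657, with Pearson r of 0.902, 0.887 and 0.870 over the 8 pools. These 3 are class I receptors of chromosome 7, whereas Olfr774 is a class II receptor. The receptors most like Olfr642 were Olfr12, Olfr707 and Olfr978, with r of 0.941, 0.870 and 0.809. These are descriptions over 8 pools that share arrays with the test, and each named receptor was picked from all the others for its high r.

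Beyond the receptors ranked by p, several with a large interaction were chosen after their values were seen. Olfr874 of chromosome 9 had differences of 2.60, 2.11, 2.53 and 0.95 with odor and −0.45, 1.01, −0.11 and 0.49 with vehicle. Odor pool 4 lay just below vehicle pool 2, so the groups overlapped, and the interaction was 1.81 ± 0.41 (adjusted p = 0.910 by limma). Olfr638, a class I receptor above background on all 16 arrays, shows how the replicate number entered. Its odor differences were 2.00, 1.57, 1.54 and −0.67 and its vehicle differences 0.59, −0.72, 0.48 and −2.34. Both treatments were lowest in pool 4, and within numbers odor exceeded vehicle by 1.41, 2.29, 1.06 and 1.67. Its unadjusted p was 0.0511, and 1.1e-04 with the replicate block, where its adjusted p was 0.454. The smallest p with the block belonged to Olfr669, another class I receptor of chromosome 7, at an interaction of 1.42 (adjusted p = 0.454 by limma).

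Odorant receptors fall into class I, which descends from the receptors of fish and lies in a single cluster on chromosome 7, and the more numerous class II. By the hyphenated MOR names in RefSeq, 120 members were class I and 941 class II, and 3 with names of both classes were counted by the first. The other 19, among them Olfr16 (MOR26713), had no hyphenated MOR name and were counted in neither class. The class I median interaction was 0.39 log2 units with 75.8% positive, and the class II median was 0.13 with 62.4% positive. At an unadjusted p under 0.05, 14 class I receptors (11.7%) were positive and 2 (1.67%) negative, and for class II the counts were 41 (4.36%) and 10 (1.06%), against 3.09% and 2.28% of all features. With the replicate block they were 39 and 2 for class I and 115 and 36 for class II, against 4.18% and 2.69% of all features. The split was looked at with the values known, and the difference between the classes was not tested.

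Within replicate numbers 1 to 4, the median odor minus vehicle difference was 0.56, 0.54, 0.35 and 0.19 for class I and 0.14, 0.07, 0.25 and −0.02 for class II. Class I was positive in every number, and class II was near 0 in number 4. Pool 1 stood apart in both treatments, with class I medians of 1.25 in odor pool 1 and 0.90 in vehicle pool 1 against 0.12 to 0.53 in the other 6 pools. Without odor pool 1 the class I median interaction was 0.13 with 57.5% positive, the class II median was 0.04 and that of all receptors 0.05. Without vehicle pool 1 the class I median was 0.64, and without both pools of number 1 it was 0.34. Without vehicle pool 3 the median of all receptors was 0.08 and that of class II 0.07. Without both pools of number 3 they were 0.08 and 0.05.

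The size of the overall receptor shift moved with the treatment of the array values. The receptor median was 0.10 after quantile normalization, 0.05 with each array centred on its median over tested features, and 0.018 with values raised to background. The share of positive receptors was 58.8%, 53.9% and 51.5% under these settings. The class I median was 0.36, 0.29 and 0.23 and the class II median 0.08, 0.03 and 0.0036. The receptor median exceeded that of other genes by 0.13 as deposited, by 0.11 after quantile normalization and by 0.16 with values raised to background. This excess was 0.026 without odor pool 1, 0.075 without vehicle pool 2, 0.064 without vehicle pool 3 and 0.20 without vehicle pool 1. It was 0.054 without both pools of number 3. The 5222 negative control probe sets had a median interaction of −0.39, with 46 positive and 470 negative at an unadjusted p under 0.05 and none at an adjusted p of 0.05 by limma. Their median pool differences were −0.48, 0.03, −0.13 and −0.17 with odor and 0.26, −0.09, 0.32 and 0.24 with vehicle. The part of this control signal in the receptor shift was not tested.

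**Figure D4:**
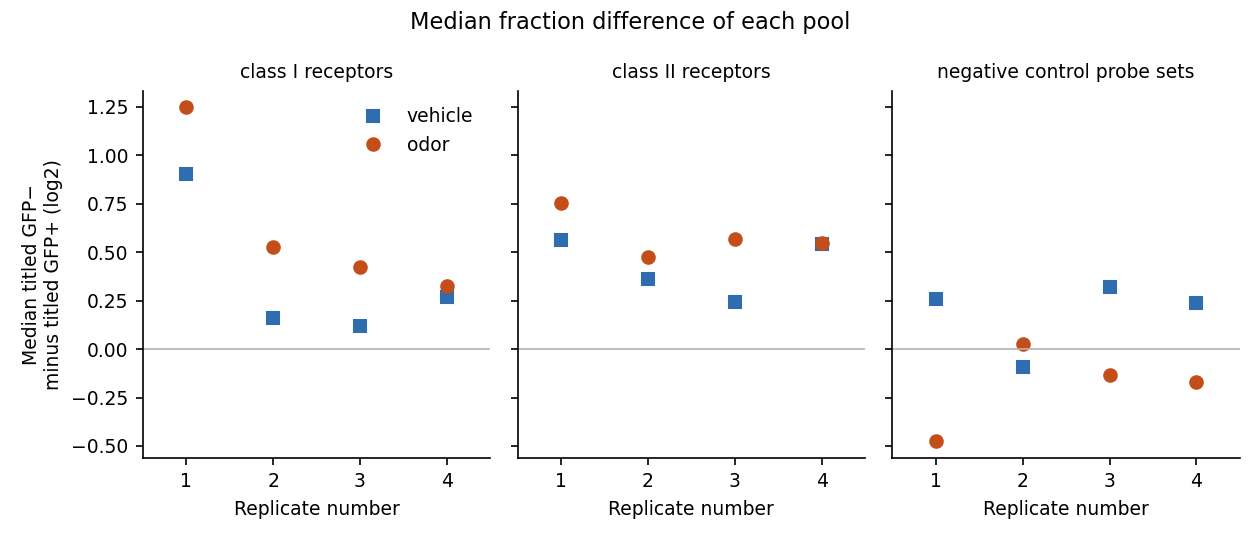
Median difference of titled GFP− minus titled GFP+ (y axis, log2 units) in each odor and vehicle pool by replicate number (x axis), for 120 class I receptors, 941 class II receptors and 5222 negative control probe sets. The odor point lies above the vehicle point in all 4 numbers for class I and below it in numbers 1, 3 and 4 for the control probe sets.

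By fraction, the receptors' odor minus vehicle difference was further from 0 in the titled GFP+ arrays. The median receptor's odor mean minus vehicle mean was −0.22 log2 units in titled GFP+ arrays and −0.08 in titled GFP− arrays. Over all features these medians were −0.03 and −0.004, and for class I they were −0.25 and 0.08. Odor pool 1 weighed on the titled GFP+ value. The median receptor signal of titled GFP+ arrays was 7.945, 8.82, 8.71 and 8.92 in odor pools. In vehicle pools it was 8.59, 8.88, 8.81 and 9.18, so the groups overlapped. Per pool, the median difference of all receptors was 0.80, 0.48, 0.54 and 0.52 with odor and 0.58, 0.30, 0.21 and 0.52 with vehicle, and the groups overlapped.

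Across the chromosomes with at least 10 receptors, the median interaction of the values as deposited was positive everywhere. Centring each array on its median over tested features lowers every interaction alike, and took the median of all receptors from 0.16 to 0.05. The sign of the smaller chromosome medians thus depends on the scaling. As deposited, the medians were as follows. It was 0.30 for the 12 receptors of chromosome 13, 0.25 for the 129 of chromosome 9 and 0.23 for the 230 of chromosome 7, which holds class I. It was 0.06 for the 282 of chromosome 2 and 0.02 for the 78 of chromosome 11. At an unadjusted p under 0.05, chromosome 7 had 20 positive (8.7%) and 3 negative (1.3%) receptors. Chromosome 9 had 9 (6.98%) and 1 (0.775%), and chromosome 11 had none of either sign (6 and 3 with the replicate block). Over all features the shares were 3.09% and 2.28%, or 4.18% and 2.69% with the block. Divided by mean signal into 4 sets of 270, the receptors had medians of 0.14, 0.19, 0.16 and 0.10 from the dimmest to the brightest set. The dimmest set held all 115 members that were below background on every array.

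Receptor subfamilies are named by MOR number, and members of a subfamily are similar in sequence. Olfr16 is listed in RefSeq as MOR26713, and 14 other measured receptors carry MOR267 names. The family was chosen after these values were seen. Of the 14, 13 had a positive interaction, with a median of 0.49, which ranked ninth of the 76 families with at least 5 members. At an unadjusted p under 0.05, 4 were positive and none negative, and with the replicate block 6 and 1. Over all receptors the shares were 5.19% and 1.11%, or 14.6% and 3.52% with the block. Over all features they were 3.09% and 2.28%, or 4.18% and 2.69% with the block. Without 1 pool, 10 to 14 of them were positive, and the median was 0.32 to 0.68, lowest without odor pool 4. With values raised to background 12 were positive.

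Olfr1408, like Olfr16 a receptor of chromosome 1, was the highest of them. Its differences were 1.496, 0.79, 1.31 and −0.56 with odor and −1.27, −0.50, −0.25 and −1.43 with vehicle. As for Olfr16, odor pools 1, 2 and 3 were positive, odor pool 4 was negative, all 4 vehicle pools were negative, and the groups overlapped. The interaction was 1.62 ± 0.45 (SE, unadjusted p = 0.0050, adjusted p = 0.910 by limma). Olfr218, also of chromosome 1, had differences of 0.96, 1.65, 0.60 and 0.89 with odor and −0.17, 0.59, 0.41 and −0.36 with vehicle, without overlap (interaction 0.91 ± 0.29). Olfr509 and Olfr479 of chromosome 7 stood at 0.95 ± 0.33 and 0.97 ± 0.44, and Olfr1404 at 0.80 ± 0.31. Odor exceeded vehicle in 4 of 4 numbers for Olfr1408, Olfr218, Olfr509 and Olfr479 and in 3 of 4 for Olfr1404. These 5 were above background on all 16 arrays.

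Not every member shared this. Olfr370 had an interaction of 0.05 ± 0.31. Olfr63 of chromosome 17 stood at −0.68 ± 0.87, with odor minus vehicle at −0.90 to −0.49 in all 4 numbers. Olfr1406 was lower in titled GFP− in all 8 pools, with differences of −8.89 to −5.04 with odor and −8.62 to −6.87 with vehicle, and had an interaction of 0.70 ± 0.75. Members similar in sequence may share signal on a short oligonucleotide array, which was not tested.

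**Figure D5:**
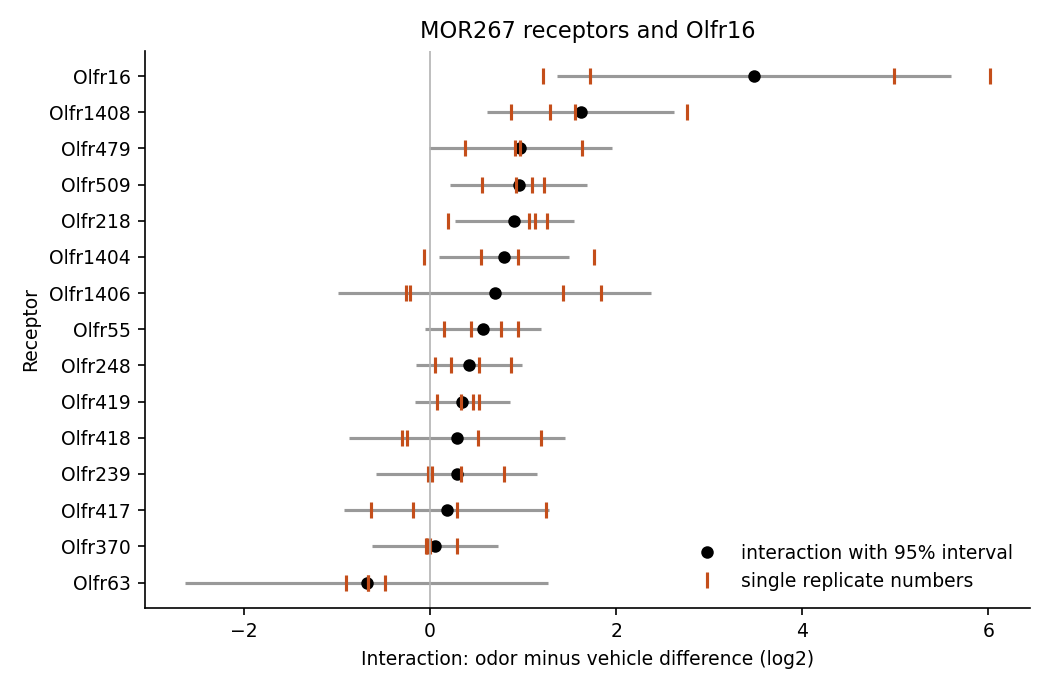
Interaction (x axis, log2 units) of Olfr16 and the 14 receptors with MOR267 names (y axis), as points with 95% intervals, and the odor minus vehicle difference within each of 4 replicate numbers as ticks. Olfr16 lies furthest right at 3.48, 13 of the 14 others lie above 0 and Olfr63 lies below it.

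The families with the highest medians were MOR34 at 0.69 (6 of 8 members positive), MOR146 at 0.66 (5 of 5) and MOR161 at 0.61 (4 of 6). The lowest was MOR13 at −0.37 (2 of 5 positive), which includes Olfr642. In MOR34, a class I family, the median odor minus vehicle difference was 1.31 in number 1, 0.52 in number 2, 0.48 in number 3 and −0.01 in number 4.

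Other chemosensory receptors were read from the same fit. Of 15 features for trace amine-associated receptors, which detect volatile amines, 0 passed at an adjusted p of 0.05 by limma, 1 was positive and none negative at an unadjusted p under 0.05, and the median was 0.11. Taar2 stood at 0.99 ± 0.46, Taar1 at 0.68 ± 0.22, Taar7f at 0.59 ± 0.45 and Taar8a at −0.36 ± 0.29, with Taar1 below background on all 16 arrays. The 323 features for vomeronasal receptors, of which 320 were below background on every array, had a median of 0.02 with 17 positive and 15 negative at an unadjusted p under 0.05.

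Genes of sensory neuron activity and identity had medians near that of all features, and none passed (limma, adjusted p of 0.05). The 11 features of the activity-dependent list had a median interaction of 0.02 and none at an unadjusted p under 0.05. Lrrc3b stood at −0.36 ± 0.17, Plcxd3 at −0.36 ± 0.25 and Kirrel2, an adhesion molecule in axon sorting, at −0.28 ± 0.20. The mean signal of this list was higher with odor in both fractions, without overlap. It was 12.82 to 13.00 against 12.47 to 12.64 in titled GFP− arrays and 12.12 to 12.21 against 11.69 to 11.84 in titled GFP+ arrays. The list was written with earlier results on these arrays known, so this separation is not independent of them. The medians were 0.00 for mature neuron markers (13 features), 0.05 for immature neuron markers (9), −0.00 for odorant transduction genes (18), −0.02 for regulators of receptor choice (21) and −0.06 for axon sorting molecules (12). None of these 5 lists had a member at an unadjusted p under 0.05. Cngb1, a subunit of the olfactory channel in the mature neuron and transduction lists, stood at −0.87 ± 0.42 but was above background on 1 of 16 arrays. The G protein subunit Gng13 stood at 0.31 ± 0.26, Cnrip1 at 0.30 ± 0.19, the immature neuron gene Stmn2 at 0.22 ± 0.19, Nfia at −0.33 ± 0.24 and the adhesion molecule Ncam2 at −0.27 ± 0.18.

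Immediate-early genes, the first transcribed on stimulation in many cell types, had a median of −0.06 over 24 features, with 2 positive at an unadjusted p under 0.05 and none passing. Nr4a1 had a mean difference of −1.11 log2 units with odor and −2.38 with vehicle, an interaction of 1.27 ± 0.48 (adjusted p = 0.910 by limma). Junb stood at 1.07 ± 0.58 and Egr3 at −0.44 ± 0.25, and Maff, at 0.63 ± 0.20, was below background on all 16 arrays.

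Markers of the other cells of the mucosa were examined for a change in the sort. Neutrophil markers, all 10 of them above background on some array, had a median interaction of 0.30 with none at an unadjusted p under 0.05. Their mean signal was 5.32 to 5.96 in odor and 5.28 to 5.59 in vehicle arrays titled GFP−, against 12.61 to 14.47 and 13.08 to 14.88 in arrays titled GFP+. Camp stood at 0.81 ± 0.68, Ltf at 0.53 ± 0.48, Mmp9 at 0.49 ± 0.58 and Ngp at 0.30 ± 0.47. Other leukocyte markers had a median of 0.09 over 9 features. Their mean signal in arrays titled GFP+ was 10.04 to 11.64 with odor and 10.55 to 12.07 with vehicle, so odor and vehicle overlapped.

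The 6 microvillar cell and ionocyte markers had a median of 0.61, and all 6 were positive. Ascl3 stood at 1.44 ± 0.50 and Foxi1, a transcription factor of ionocytes, at 0.83 ± 0.30, both at an unadjusted p under 0.05, and Pou2f3, a transcription factor of tuft cells, at 0.75 ± 0.49. Their mean signal was 5.23 to 5.61 with odor and 4.75 to 5.21 with vehicle in arrays titled GFP−, and 8.01 to 8.33 against 8.27 to 8.76 in arrays titled GFP+. The mean of the list thus lay below background in every array titled GFP−. Ascl3, Foxi1 and Pou2f3 were each below background on all of those arrays too. In arrays titled GFP+, Ascl3 was above background on 1 with odor and 4 with vehicle. The median was 0.26 for 7 sustentacular, 0.16 for 4 Bowman gland, 0.29 for 3 ciliated, 0.50 for 3 erythroid, −0.01 for 6 basal and progenitor, 0.04 for 3 vascular and 0.00 for 2 glial features. Of these only Krt14, a basal cell keratin below background on all 16 arrays, had an unadjusted p under 0.05 (−0.71 ± 0.28). The part of these cells in the receptors' interactions was not tested.

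Among all 18492 other features, 0 were higher and 0 lower at an adjusted p of 0.05 by limma, with 548 positive and 435 negative at an unadjusted p under 0.05. The 5 with the smallest p at the positive end were Serpinb3a, Dnmt3b, Fabp5, Vmn1r250 and Vmn1r54, with interactions of 0.87 to 1.32. All 5 were below background on all 16 arrays. At the negative end were Lrrc4b, Skint5, Xlr5a, Lamb3 and Tnfrsf23, with interactions of −1.05 to −0.70, and Tnfrsf23 alone was above background, on 14 of 16 arrays. Its differences were −0.82, −0.54, −0.12 and −0.75 with odor and 0.35, 0.13, 0.98 and 0.48 with vehicle. The groups did not overlap, and the interaction was −1.04 ± 0.23 (SE, adjusted p = 0.910 by limma). The 2634 transcript clusters without a gene name gave 58 positive and 87 negative at an unadjusted p under 0.05 and none at an adjusted p of 0.05 by limma.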

How the data were processed

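The value table held 28846 entries on each of 16 one-colour Affymetrix Clariom S arrays, as log2 signals deposited by the authors, a unit read from the range of the values (2.01 to 19.3 over the tested features). They were made with Affymetrix Expression Console, per the submitters' processing notes. Its version, the normalization and the genome build are not given in the sources used here. RNA input was 50 to 100 ng, per the labels' protocols. Values were used as deposited.

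Pool differences were fitted with limma 3.58.1 (lmFit and eBayes, R 4.3.3) with treatment as the only term, two-sided, with Benjamini-Hochberg adjustment over all 19572 features with 1 gene symbol. SE and 95% intervals are moderated values from this fit. Each replicate is a pool of other mice. Background is the 95th percentile of the 23 background probe sets of an array. Symbols, chromosomes and MOR names were matched by Entrez identifier for 1080 of 1080 receptors to RefSeq's table of GRCm38.p6, and families up to MOR42 were taken as class I.

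Pools were simultaneously exposed per the series design. Deviations of odor and vehicle pools of the same number correlated at 0.350, 0.146, 0.119 and 0.356 over all features. The highest correlation of each odor pool with a vehicle pool of another number was −0.0103, −0.000126, 0.0671 and 0.0907. Deviations from a treatment mean sum to 0 for each feature. A positive correlation within a number thus lowers those with other numbers by construction, so the latter are not an independent baseline. Numbers were taken as pairs in the replicate block and in differences within numbers, not in the main fit.

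The rule named the 5 receptors and 5 other genes with the smallest p at each end, since fewer passed, plus Olfr16, Olfr2, S100a5, Omp and up to 4 members of each list. Members, lists and rule were chosen with earlier results of these data known. The fit was tested on simulated data. With 4 pools against 4 the number of pools limits the precision.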

Additional observations from a re-analysis of the deposited data

How the results depend on the processing

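No receptor and no other gene passed an adjusted p of 0.05 under any of the 25 alternatives run, in either direction. The smallest adjusted p was 0.367, with arrays centred on the receptor median and the replicate block. The replicate block with another scaling, and the block with a replicate number left out, were added after seeing the data.

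At an unadjusted p under 0.05, receptors numbered 56 positive and 12 negative. The counts were 16 and 2 with group means fitted on the 16 arrays, which leaves out the pairing of fractions within a pool. They were 158 and 38 with the replicate block, and 132 and 47 with the block after quantile normalization. With the block and each array centred on its median over tested features, they were 111 and 58. That centring without the block gave 37 and 19, and centring on the receptor median gave 30 and 35, or 93 negative with the block. Raising values to background gave 24 negative. Leaving out 1 pool gave 39 (odor pool 1) to 100 (odor pool 4) positive and 11 to 25 negative. Over all features the shares were then 2.39% to 3.92% and 1.83% to 2.67%. With the block and number 1, 2, 3 or 4 left out the counts were 125 and 41, 148 and 33, 138 and 48, and 159 and 30. Over all features the shares were then 3.45% to 3.94% and 2.16% to 3.19%. For other genes, 548 positive and 435 negative became 198 and 845 after centring on tested features (302 and 986 with the block), 62 and 1096 after centring on the receptor median (135 and 1715 with the block), 240 and 99 with values raised to background and 333 and 157 among features above background on 4 or more arrays, where fewer were tested. The receptor median interaction, 0.16 as deposited, was 0.018 with values raised to background and 0.047 to 0.23 with pools left out. Centring on the receptor median sets it near 0 by construction (−0.043, with or without the block), which says nothing about its stability. The cause of the other moves was not tested.

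Of the 24 named genes, 15 kept their sign under every alternative that gave a value. With values raised to background, Olfr577, Serpinb3a, Dnmt3b, Fabp5, Vmn1r250 and Vmn1r54 turned to −0.139, the shift of the background itself, since all are below it on every array. Olfr642, Lrrc4b, Skint5, Xlr5a and Lamb3, also below background on every array, likewise became −0.139. Their kept sign under that setting follows from the negative shift alone. Olfr2 turned to 0.057 with pool weights and ranged from −0.58 to 0.35 with pools left out (0.22 without number 1). S100a5 ranged from −0.076 (without number 1) to 0.52 with pools left out, at −0.056 without odor pool 1. Omp was −0.10 centred on tested features and −0.20 on the receptor median, each also with the block, −0.0020 with pool weights, and −0.029 to 0.030 with pools left out (−0.0047 without number 4). Signal over background limits Olfr774, Olfr657, Olfr1002, Olfr557 and Olfr769, whose interactions lay nearer 0 with values raised to background.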

Other observations

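Dixon's ratio was computed for the 4 odor and the 4 vehicle differences of each of the 24 named genes and for the receptor medians of the pools, 50 groups in all. It passed the 95% critical value in 0 groups, where chance passes about 1 in 20.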
